A study of Rattus norvegicus with 8 samples.

Results

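The genes described here are 10 genes of the rat thyroid line FRTL-5 whose signals stood apart between cells carrying the L629F and the wild type (WT) human TSH receptor under both salts tested: Serpinf1, Gal3st4, Ucp1, Cyp2f4, Mest, Pdzrn3, Plekhd1, Cd47, Icam5 and Saa3. They were selected on measured values, namely the difference between L629F and WT arrays without and with iodide in these same 8 arrays, so that difference is given as a description and was not tested. They are 10 of the 14218 genes with an own symbol on the array, and 12 of its 31099 probe sets, since Cd47 and Icam5 have 2 each. Of these probe sets 11 lay above the dim limit, which left out the lowest 40% of probe sets by mean log2(signal + 35.3) over the 8 arrays (a signal of 69.9 when that mean is turned back) and with them the dimmer Icam5 one. All 10 genes were thus among the 10047 that were fitted, each through its brightest probe set. Saa3 on the WT chloride arrays (57.0 on average) and Icam5 on the WT iodide arrays (18.2) lay below that limit.

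FRTL-5 cells derive from the follicles of the rat thyroid and need thyrotropin (TSH) to grow. The cells, of the sub-clone SB5, stably expressed the human TSH receptor with L629F, an activating substitution, or its WT form. The groups were L629F cells with 1 mM sodium iodide, L629F cells with 1 mM sodium chloride, WT cells with 1 mM sodium iodide and WT cells with 1 mM sodium chloride, on 2 arrays each, and all were grown with 5 mU/ml bovine TSH, so the receptor of the WT cells also had its hormone. The labels give 1 line per receptor and neither the promoter of the receptor gene nor the time of treatment, so the receptor and the history of the line cannot be told apart, and they do not call the replicates separate cultures, so p-values cover only the spread between these arrays. No probe set on the array checks the human receptor. The rat Tshr gene of the cells themselves read 566 on L629F and 437 on WT arrays on average, with overlap between the lines. Both lines thus also carried its transcript under the same TSH.

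In the thyroid the TSH receptor couples mainly to the G protein Gs, which raises cAMP and activates protein kinase A, and this route drives growth, iodide uptake and the making of thyroid hormone. Iodide in excess in turn damps thyroid function. The 10 genes are not known to form a pathway. They encode a secreted serpin, an acute phase protein, a pair of cell surface immunoglobulin-family proteins, a pair of enzymes of the secretory pathway and endoplasmic reticulum, a mitochondrial proton carrier and intracellular proteins of membrane and ubiquitin biology.

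Across the arrays the median signal was 138 to 147 on L629F and 118 to 127 on WT arrays, and the 25th percentile was 40.9 to 43.2 on L629F and 29.3 to 31.6 on WT arrays, so dim probe sets read higher on every L629F array. With the probe sets ranked by mean signal into 5 bins of equal size, the median log2 difference of L629F minus WT without iodide was 0.11, 0.25, 0.14, 0.00 and -0.03, dimmest bin first. Icam5 and Saa3 lie in bin 3 and the other members, on their brightest probe sets, in bins 4 and 5, and the part of this shift in their values was not tested. The 3′ to 5′ signal ratio of actin, higher in degraded RNA, was 5.93 and 7.90 on L629F and 2.23 and 5.05 on WT arrays without iodide, so the lines did not overlap, and 5.95 and 6.48 on L629F and 3.66 and 9.15 on WT arrays with iodide. That of GAPDH was 1.54 and 2.17 on L629F and 1.22 and 1.55 on WT arrays without iodide, and 2.27 and 2.49 on L629F and 1.40 and 3.13 on WT arrays with iodide. The part of RNA quality in the line differences was not tested. Thyroid markers were present, with 9 of 11 measured genes above the dim limit and summed signals of 51828 to 56383 on L629F and 45623 to 56957 on WT arrays. Of the markers of other cells, 2 of 8 measured for fibroblasts were above that limit, with summed signals of 387 to 590.4 on L629F and 341 to 431 on WT arrays. The same was true of 1 of 5 for endothelium (198 to 418 on L629F and 231 to 466 on WT arrays) and 1 of 5 for C cells (382 to 460.0 on L629F and 275 to 421 on WT arrays). Single genes below the limit differed, with every L629F array above every WT array. These were Col3a1 (106.9 on L629F and 40.6 on WT arrays on average) and Postn (16.0 and 4.56) for fibroblasts and Calcb (20.6 and 6.78) for C cells. Lower on average in L629F were Pdgfra (74.0 and 154) and Dcn (5.37 and 6.68) for fibroblasts and Scg2 (36.3 and 39.8) for C cells. The part of these markers in the line differences was not tested. In bulk RNA, more cells with a transcript and more transcript per cell cannot be told apart.

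Serpinf1 encodes pigment epithelium-derived factor, a secreted serpin that does not inhibit proteases and opposes the growth of blood vessels. Without iodide its signal was 1278 and 1155 on the L629F arrays, against 316 and 441 on the WT arrays. With iodide it was 741 and 924 in L629F and 191 and 170.1 in WT cells. Every L629F array lay above every WT array, and the L629F mean was 3.21 times the WT mean without and 4.62 times with iodide. On the log2(signal + 35.3) scale, which understates the change of dim genes, the difference was 1.61 ± 0.21 and 2.00 ± 0.21 (SE, n = 2 arrays per group). Among all 10047 genes only 1, RT1-Db1, had a larger smaller-of-the-2 difference on the positive side.

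Cd47 encodes a surface protein found on most cells that binds SIRPα on phagocytes, which spares the cell from being engulfed, and is also a receptor of thrombospondin. Its brighter probe set read 1819 and 1856 in L629F and 848 and 933 in WT cells without iodide. With iodide the values were 2405 and 2503 in L629F and 1139.6 and 1356 in WT cells. The lines did not overlap, and the arrays of a group lay close together, at log2 differences of 1.02 ± 0.15 without and 0.96 ± 0.15 with iodide. The dimmer probe set read 362 and 328 in L629F and 250.3 and 185 in WT cells without iodide. It read 371 and 332 in L629F and 212 and 197 in WT cells with iodide, again without overlap, at smaller differences of 0.60 ± 0.25 and 0.69 ± 0.25. Both probe sets of Cd47 thus ran the same way between the lines.

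Icam5, or telencephalin, is an adhesion molecule of forebrain neurons that binds the leucocyte integrin LFA-1. Its brighter probe set read 214 and 159 in L629F and 125 and 96.7 in WT cells without iodide. On the iodide arrays the values were 173 and 132 in L629F and 29.4 and 7.01 in WT cells, both of the WT values below the dim limit. The lines did not overlap, with log2 differences of 0.60 ± 0.37 without and 1.84 ± 0.37 with iodide, and the second ran from 0.88 to 2.31 with a larger and a smaller pseudocount. The dimmer probe set read 27.3 and 82.1 in L629F and 52.0 and 35.6 in WT cells without iodide, and 105.6 and 81.2 in L629F and 51.4 and 104.3 in WT cells with iodide. On that probe set the lines overlapped under both salts, so the line difference of Icam5 rests on 1 of its 2 probe sets.

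Saa3 encodes a serum amyloid A that in mouse is made outside the liver in inflammation. Without iodide it read 338 and 307 in L629F and 26.0 and 87.9 in WT cells. With iodide it read 253 and 339.6 in L629F and 91.0 and 113 in WT cells. All L629F arrays lay above all WT arrays, with log2 differences of 2.04 ± 0.35 without and 1.26 ± 0.35 with iodide. The first was 2.54 without WT chloride replicate 2 and 1.54 without WT chloride replicate 1, the array with the signal of 26.0. With a larger pseudocount the differences were 1.24 without and 0.84 with iodide. Leucocyte markers, which could bear on Saa3 and Icam5, had 4 of 8 measured genes above the dim limit and summed signals of 440.4 to 545 on L629F and 380 to 559 on WT arrays. Of the genes below the limit, Ptprc averaged 23.5 on L629F and 16.0 on WT arrays, Itgam 8.28 and 6.63, Tyrobp 23.8 and 41.4 and Cd68 18.7 and 70.6. Every L629F array lay below every WT array for Cd68 and above every WT array for Lyz2 (111.9 on L629F and 52.1 on WT arrays on average), and the part of leucocyte markers in the values of Saa3 and Icam5 was not tested.

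**Figure D1:**
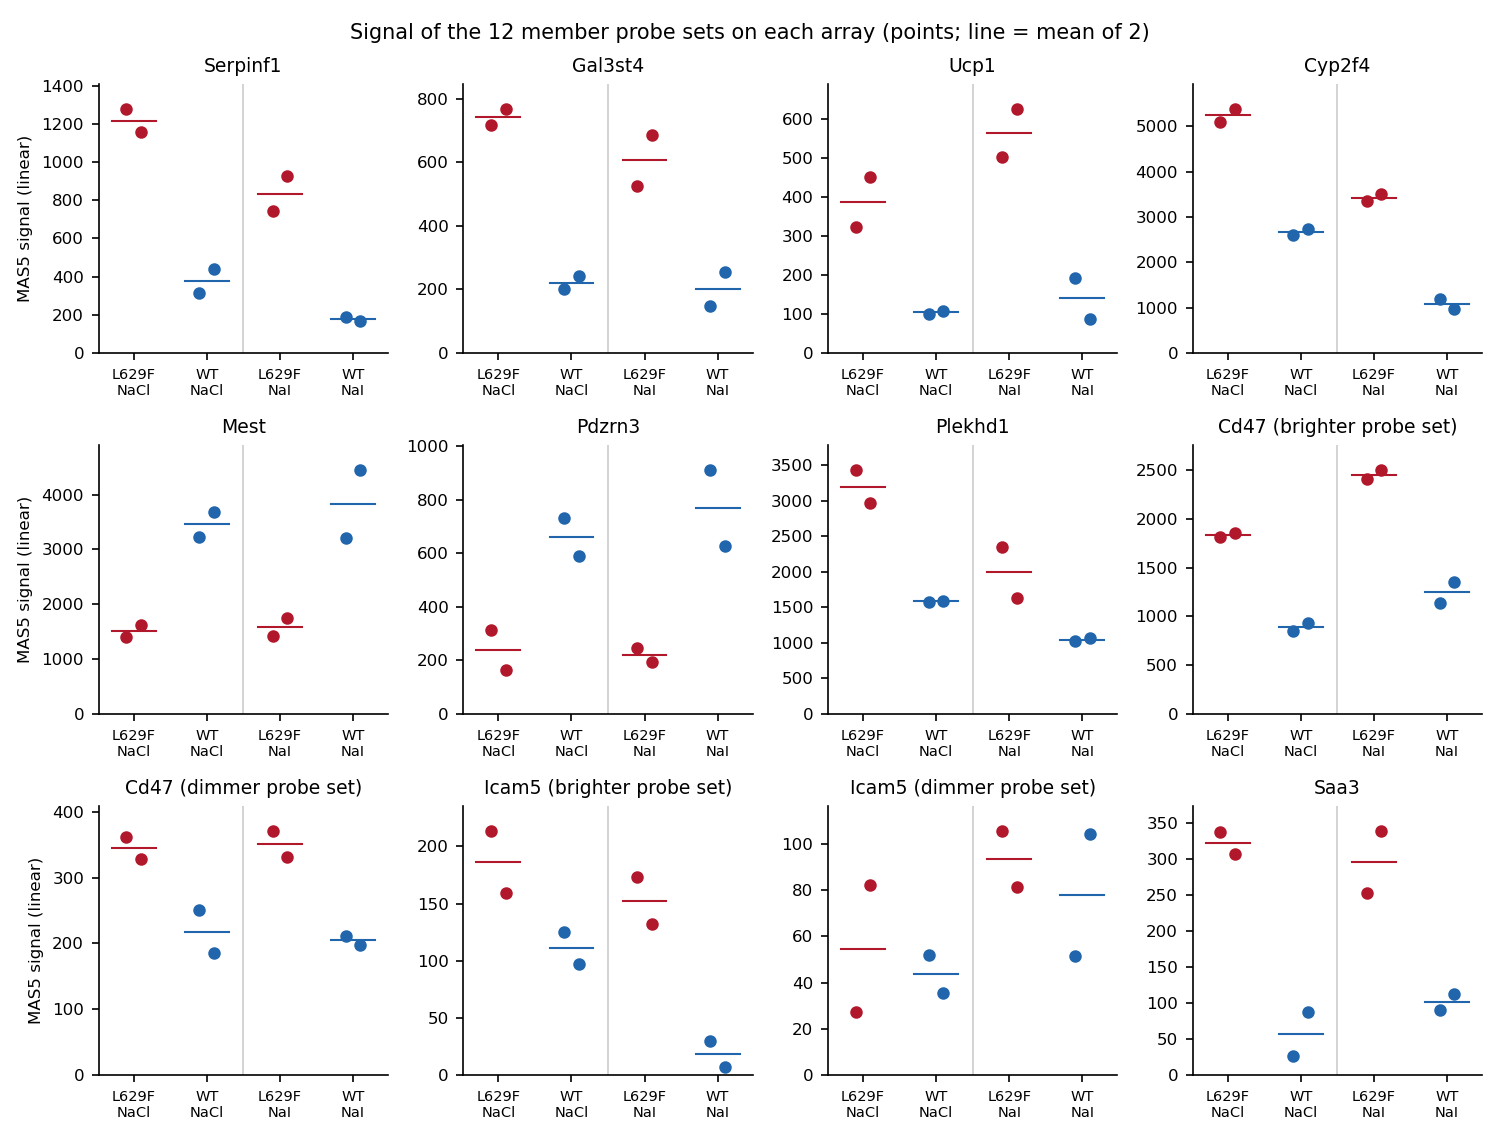
MAS5 signal (linear axis from 0) of each of the 12 probe sets of the 10 genes on every array, as points, with a line at the mean of the 2 arrays of a group; red is L629F and blue is WT, with sodium chloride (NaCl) left and sodium iodide (NaI) right. The lines do not overlap under either salt on 11 probe sets, with Mest and Pdzrn3 lower and the others higher in L629F, and they overlap on the dimmer Icam5 probe set. The genes were chosen on this difference. Of all 10047 genes fitted, 10.3% had the 4 L629F arrays on 1 side of the 4 WT arrays.

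Of the enzymes, Gal3st4 is a Golgi sulfotransferase that adds sulfate to galactose at the ends of O-linked sugar chains. It read 717 and 768 in L629F and 201 and 242 in WT cells without iodide. Under iodide its signal was 526 and 686 in L629F and 147 and 256 in WT cells. The L629F mean was 3.36 times the WT mean without and 3.01 times with iodide, with log2 differences of 1.60 ± 0.25 and 1.47 ± 0.25 and no overlap.

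Cyp2f4 is a cytochrome P450 best known from rodent airways, where enzymes of its subfamily oxidise naphthalene and other inhaled compounds. It read 5102 and 5387 in L629F and 2601 and 2739.9 in WT cells without iodide. With iodide it read 3346 and 3512 in L629F and 1202 and 960.5 in WT cells. The 4 groups stood in the order L629F chloride, L629F iodide, WT chloride and WT iodide, and no array of a group overlapped the next. The log2 difference between the lines was 0.96 ± 0.14 without and 1.64 ± 0.14 with iodide.

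Ucp1 encodes the proton carrier of brown fat mitochondria that turns the respiratory gradient into heat, and in brown fat it is induced by noradrenaline through cAMP. It read 324 and 449.97 in L629F and 101 and 107 in WT cells without iodide. In the presence of iodide the signals were 503 and 626 in L629F and 193 and 88.4 in WT cells. All L629F arrays lay above all WT arrays, by 1.58 ± 0.30 without and 1.83 ± 0.30 with iodide on the log2 scale. None of the 5 measured adipocyte markers was above the dim limit, and their summed signals were 137 to 240 on L629F and 83.4 to 288 on WT arrays. Of a list of 18 other genes of brown fat and heat production, chosen with earlier results known, 7 were bright enough to be fitted and none passed an adjusted p of 0.05 between the lines (limma). Among them Ppargc1a, a coactivator that acts on Ucp1, had log2 differences of -0.28 ± 0.21 without (adjusted p = 0.602) and 0.09 ± 0.21 with iodide (adjusted p = 0.905).

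Plekhd1 encodes a pleckstrin homology and coiled-coil protein of little-known role. It read 3433 and 2963 in L629F and 1578 and 1589.9 in WT cells without iodide. On the iodide arrays it was at 2351 and 1630.2 in L629F and 1029 and 1066 in WT cells. The lines did not overlap under either salt, with log2 differences of 0.99 ± 0.17 and 0.88 ± 0.17, although the lower L629F iodide array lay only just above the WT chloride arrays.

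The members lower in L629F cells were Mest and Pdzrn3. Mest is an imprinted gene, expressed from the paternal copy, whose protein belongs to the alpha/beta hydrolase family. It read 1411 and 1614 in L629F and 3232 and 3676 in WT cells without iodide. With iodide it read 1413 and 1757 in L629F and 3207 and 4448 in WT cells. The L629F mean was 0.438 times the WT mean without and 0.414 times with iodide, with log2 differences of -1.17 ± 0.18 and -1.24 ± 0.18.

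Pdzrn3 is a ubiquitin ligase with a RING finger and PDZ domains, known from muscle and blood vessels. It read 315 and 164 in L629F and 732 and 589 in WT cells without iodide. Under iodide the signals were 248 and 195 in L629F and 911 and 628 in WT cells. Again no L629F array reached the WT range, at log2 differences of -1.39 ± 0.28 without and -1.63 ± 0.28 with iodide. The arrays of a group lay further apart for Pdzrn3 than for Mest, as the SE shows.

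Of all 10047 genes, 49 (0.488%) passed between the lines without iodide and 51 (0.508%) with iodide, and 19 (0.189%) passed under both salts in 1 direction, 15 higher and 4 lower in L629F (limma, Benjamini-Hochberg adjusted p under 0.05). The split of all genes was 34 higher and 15 lower without and 37 higher and 14 lower with iodide, but 18 and 73 without and 17 and 52 with iodide when each array was centred on all its probe sets. The members include 6 of those 15 and 2 of those 4, which the way they were chosen fixes. Icam5 and Saa3 are the members outside these 19. The 4 L629F arrays lay on 1 side of the 4 WT arrays for 1038 genes (10.3%), among them all 10 members. The smaller of the 2 log2 differences ranged from 0.60 for Icam5 to 1.61 for Serpinf1 on the positive side and was -1.17 for Mest and -1.39 for Pdzrn3.

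**Figure D2:**
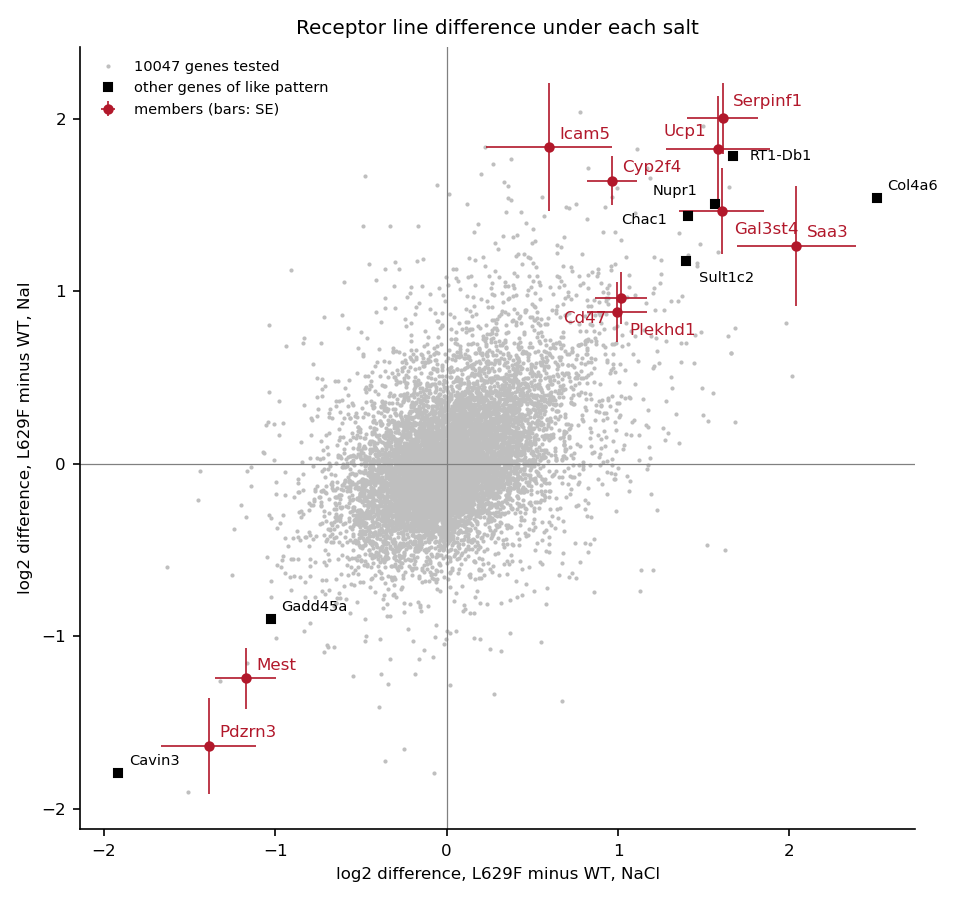
Log2 difference of L629F minus WT with sodium chloride (horizontal) and with sodium iodide (vertical) for the 10047 genes fitted (grey points), the 10 members (red, bars show the SE) and the other genes most like them (black squares). The members lie away from 0 on both axes, 8 in the upper right and Mest and Pdzrn3 in the lower left, and of the members Icam5 and Saa3 lie farthest from equal differences under both salts.

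Other genes with the same pattern, named by the size of the smaller of the 2 differences among genes that passed under both salts without overlap, were 5 higher and the only 2 lower in L629F. RT1-Db1, an MHC class II beta chain, read 582 and 469 in L629F and 130.5 and 150.3 in WT cells without iodide, and 412 and 275 in L629F and 95.5 and 53.9 in WT cells with iodide. Col4a6, a chain of basement membrane collagen IV, had log2 differences of 2.51 without (adjusted p = 0.00138) and 1.54 with iodide (adjusted p = 0.0336). Its WT signals without iodide, 63.7 and 56.6, lay below the dim limit, as did the RT1-Db1 signal of 53.9. Nupr1, a stress-induced nuclear protein, differed by 1.57 (adjusted p = 0.000961) and 1.51 (adjusted p = 0.000643). The others on this side were Chac1, which degrades glutathione and is induced by ATF4 (1.41 and 1.44), and the cytosolic sulfotransferase Sult1c2 (1.40 and 1.18). Lower were Cavin3, a coat protein of caveolae (-1.92 and -1.79), and Gadd45a, a DNA damage and stress gene (-1.03 and -0.90). In 8 fits that each left out 1 array, Nupr1 passed in all under both salts. Col4a6 with iodide and Gadd45a with iodide passed in none (adjusted p up to 0.193 and 0.226), Gadd45a without iodide passed in 4 (up to 0.303) and RT1-Db1 in 4 without and 5 with iodide (up to 0.262 and 0.141). Cavin3 passed in 6 and 7, Chac1 in 7 and 8 and Sult1c2 in 8 and 7.

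The change of the members with iodide was tested. Its average over both lines does not enter the line differences that chose them. The change within a line shares its arrays with those differences. Calls and overlaps within each line are therefore not independent of the choice. Averaged over both lines, 3 of the 10 fell and none rose, against 167 of 10047 genes (1.66%) in either direction, 55 higher and 112 lower (99 and 96 with arrays centred on all probe sets). Cyp2f4 changed by -0.95 ± 0.10 (limma, SE, adjusted p = 0.000775), Serpinf1 by -0.73 ± 0.15 (adjusted p = 0.0242) and Plekhd1 by -0.64 ± 0.12 (adjusted p = 0.0196). All 3 were higher in L629F cells, and for each of them every iodide array lay below every chloride array of the same line. Cd47 had a positive change of 0.44 ± 0.11 that did not pass (adjusted p = 0.0569), with every iodide array above every chloride array of its line. Its dimmer probe set changed by -0.02 ± 0.18.

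The fall of Cyp2f4 passed in all 8 fits that each left out 1 array. That of Serpinf1 was lost without WT chloride replicate 2 (adjusted p = 0.134), WT iodide replicate 2 (0.0604), L629F chloride replicate 1 (0.0944), L629F chloride replicate 2 (0.0846) or L629F iodide replicate 1 (0.109). That of Plekhd1 was lost without WT chloride replicate 1 (adjusted p = 0.114), WT chloride replicate 2 (0.109), L629F chloride replicate 1 (0.0828), L629F chloride replicate 2 (0.0565) or L629F iodide replicate 2 (0.0632). With no intensity trend in the fit both missed the threshold (adjusted p = 0.107 for Serpinf1 and 0.136 for Plekhd1), as did Serpinf1 with no filter on dim probe sets (0.0657). Cd47 passed without WT iodide replicate 1 (adjusted p = 0.0346) and with arrays centred on all probe sets (0.0488). The GAPDH 3′ to 5′ ratio was 1.40 to 3.13 on iodide and 1.22 to 2.17 on chloride arrays, without overlap within L629F cells, and that of actin 3.66 to 9.15 on iodide and 2.23 to 7.90 on chloride arrays. Their part in these changes was not tested.

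Within WT cells 1 member passed, Cyp2f4, against 47 of all genes (0.468%). It averaged 1081 ± 171 with iodide and 2670.2 ± 98.5 with chloride (SD, n = 2 arrays each), a log2 change of -1.29 ± 0.14 (limma, adjusted p = 0.0025). The call was lost without WT chloride replicate 1 (adjusted p = 0.0704) or WT chloride replicate 2 (0.0743), and with no intensity trend (0.0662). Serpinf1 averaged 180.3 ± 14.5 with iodide and 378 ± 88.6 with chloride (-0.93 ± 0.21, adjusted p = 0.0798). Icam5 averaged 18.2 ± 15.8 with iodide and 111 ± 19.9 with chloride (-1.48 ± 0.37, adjusted p = 0.118), and this change ran from -1.91 to -0.66 over the alternatives, with a smaller and a larger pseudocount at the ends. The dimmer Icam5 probe set changed by 0.48 ± 0.45, in the other direction. Iodide and chloride arrays did not overlap for 6 of 10 members, 4 lower and 2 higher, where 43.2% of all genes had no overlap.

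Within L629F cells no member passed, where 9 of all genes (0.0896%) passed. At an unadjusted p under 0.05 there were 4 of 10 members and 825 of all genes (8.21%). Cyp2f4 averaged 3429 ± 118 with iodide and 5245 ± 202 with chloride (-0.61 ± 0.14, adjusted p = 0.183). Plekhd1 averaged 1991 ± 510 with iodide and 3198 ± 332 with chloride (-0.69 ± 0.17, adjusted p = 0.221). Ucp1 averaged 564 ± 86.5 with iodide and 387 ± 89.3 with chloride, a log2 change of 0.52 ± 0.30 (adjusted p = 0.71). In this line too 6 of 10 members had no overlap between the salts, 4 lower and 2 higher with iodide, against 38.6% of all genes.

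**Figure D3:**
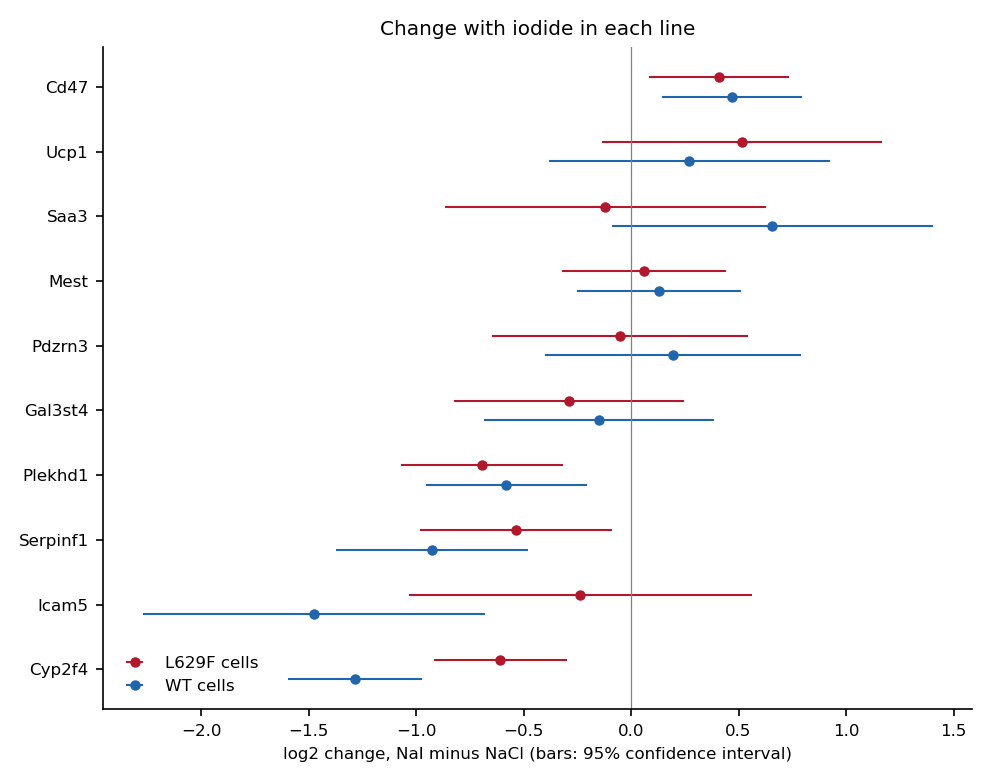
Log2 change with sodium iodide (NaI) against sodium chloride (NaCl) of each member in L629F cells (red, upper) and WT cells (blue, lower), with 95% confidence intervals from the fit, ordered by the average of both lines. Cd47 stands at the top at 0.41 in L629F and 0.47 in WT cells, and Cyp2f4 at the bottom at -0.61 and -1.29, while the intervals of Mest, Pdzrn3, Gal3st4, Ucp1 and Saa3 include 0 in both lines.

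The iodide change differed in sign between the lines for Saa3 (-0.12 ± 0.35 in L629F and 0.66 ± 0.35 in WT cells) and Pdzrn3 (-0.05 ± 0.28 in L629F and 0.20 ± 0.28 in WT cells). Neither gene passed in either line. Mest, Gal3st4 and Pdzrn3 had average changes of 0.10 ± 0.13, -0.22 ± 0.18 and 0.07 ± 0.20, whose 95% intervals ran from -0.17 to 0.37, from -0.60 to 0.16 and from -0.35 to 0.49. The difference of the iodide changes, L629F minus WT, passed for none of the members and for none of all genes (0%, limma); 2 of 10 members and 419 genes (4.17%) had an unadjusted p under 0.05. That difference can also be read as the line difference with minus without iodide, the values that chose the members. It was 0.68 ± 0.20 for Cyp2f4 (adjusted p = 0.993, 95% interval 0.24 to 1.12) and 1.24 ± 0.52 for Icam5 (adjusted p = 0.993, 0.11 to 2.37).

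RefSeq promoter windows of the GRCr8 build, from 250 bases before to 50 after each annotated start, were matched for all 10 genes. Shown are those of the 3 members that fell with iodide and of Ucp1, the member known as a cAMP target, each read 5′ to 3′ along the gene. Capitals mark the motifs searched on both strands: the cAMP response element (TGACGTCA) and its core (TGACG), which the full element contains, the TATA box (TATAAA) and the CCAAT box (CCAAT). The windows are chr1:91543518-91543817 (plus strand) for Cyp2f4, chr10:60760849-60761148 (minus strand) for Serpinf1, chr6:106071716-106072015 (plus strand) for Plekhd1 and chr19:41721372-41721671 (minus strand) for Ucp1.
Cyp2f4: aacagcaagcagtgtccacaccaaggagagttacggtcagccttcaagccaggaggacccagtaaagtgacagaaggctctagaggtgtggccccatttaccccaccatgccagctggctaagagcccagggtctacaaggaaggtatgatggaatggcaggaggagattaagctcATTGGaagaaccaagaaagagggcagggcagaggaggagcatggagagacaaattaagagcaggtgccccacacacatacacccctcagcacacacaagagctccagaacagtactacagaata
Serpinf1: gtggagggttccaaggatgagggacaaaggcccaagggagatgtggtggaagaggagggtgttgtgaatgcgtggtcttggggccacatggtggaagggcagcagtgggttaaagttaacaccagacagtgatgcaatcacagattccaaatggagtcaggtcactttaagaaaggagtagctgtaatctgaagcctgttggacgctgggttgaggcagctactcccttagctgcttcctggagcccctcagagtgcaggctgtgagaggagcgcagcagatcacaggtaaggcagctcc
Plekhd1: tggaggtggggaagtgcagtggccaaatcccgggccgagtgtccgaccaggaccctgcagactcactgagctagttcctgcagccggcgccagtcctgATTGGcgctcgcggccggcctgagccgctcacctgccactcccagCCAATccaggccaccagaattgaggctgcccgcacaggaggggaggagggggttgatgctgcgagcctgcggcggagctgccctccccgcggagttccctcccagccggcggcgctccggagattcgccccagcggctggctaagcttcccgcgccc
Ucp1: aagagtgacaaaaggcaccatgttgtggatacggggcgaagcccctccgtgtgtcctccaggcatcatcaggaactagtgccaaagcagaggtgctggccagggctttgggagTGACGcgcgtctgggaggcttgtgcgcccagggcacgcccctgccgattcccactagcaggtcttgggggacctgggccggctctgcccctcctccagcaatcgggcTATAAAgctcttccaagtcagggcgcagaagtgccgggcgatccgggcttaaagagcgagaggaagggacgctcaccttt
Serpinf1 held none of the motifs, Cyp2f4 held a CCAAT box on the opposite strand (ATTGG as printed) and Plekhd1 a pair of them, and Ucp1 held the core of the cAMP element and a TATA box.

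The full cAMP element was in none of the 10 member windows and in 1.83% of all 33469 windows of this length. Its core was in 3, those of Ucp1, Cd47 and Icam5, against 21.2% of all windows. The TATA box was in that of Ucp1 alone, against 14.2%, and the CCAAT box in those of Cyp2f4, Pdzrn3, Plekhd1 and Saa3, against 37.5%. The GC content of the windows ran from 47.0% for Saa3 to 73.3% for Cd47, with a median of 51.7% over all windows. A match shows that the letters are there, and more distant elements, such as the enhancer of Ucp1, lie outside the window.

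By position the members lie on 8 chromosomes (GRCr8), with Cyp2f4 and Saa3 on chromosome 1 and Mest and Pdzrn3 on chromosome 4. Among the 60 nearest fitted genes, 3 on each side of each member, none passed between the lines without or with iodide (limma), where 11 and 10 of them had an unadjusted p under 0.05, against 13.6% and 12.1% of all genes. Their log2 differences ran from -0.74 to 0.94 without and from -0.72 to 1.16 with iodide, with medians of -0.06 and -0.03. Not all of them were close by. The 3 after Pdzrn3 lay 5928 to 7308 kb from it, and the farthest before Cd47 lay 6123 kb away. Copg2, the gene next to Mest on the side toward higher coordinates and 11.6 kb from it by start, had 0.34 ± 0.20 without (adjusted p = 0.492) and 0.30 ± 0.20 with iodide (adjusted p = 0.583), opposite in sign to Mest. Ift57, next to Cd47, had -0.31 ± 0.21 (adjusted p = 0.562) and -0.38. Icam1, the tested gene before Icam5, had -0.10 ± 0.14 (adjusted p = 0.808) and 0.07.

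**Figure D4:**
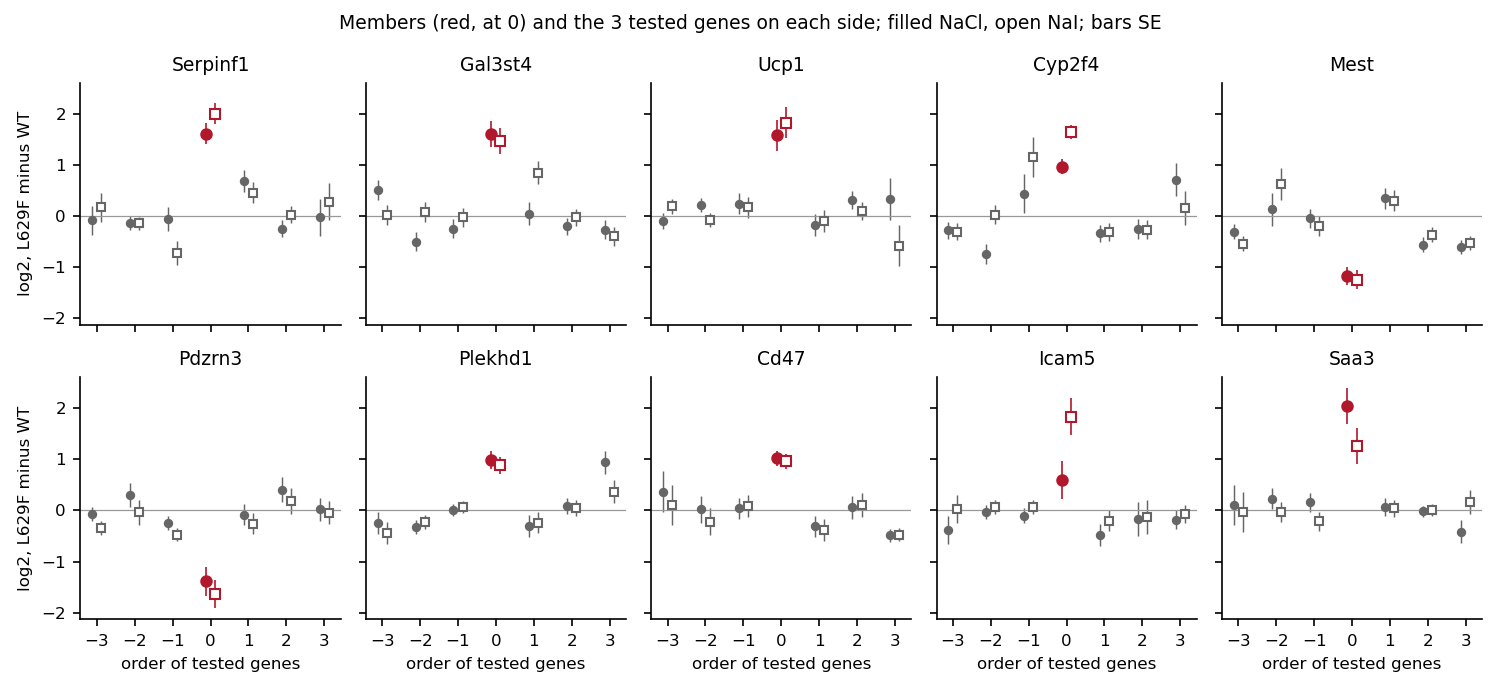
Log2 difference of L629F minus WT for each member (red, at position 0) and for the 3 nearest fitted genes on each side in chromosome order (grey), with sodium chloride as filled circles and sodium iodide as open squares; bars show the SE. The neighbours lie between -0.74 and 1.16, and none of the 60 passed the test.

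Relatives and partners of the members were read from lists chosen with earlier results of these data known. Of 20 fitted cAMP-responsive genes, 1 was higher in L629F than in WT cells without iodide. With iodide present, 2 were lower in L629F than in WT cells. The first was Egr1, an immediate early transcription factor (1.31 ± 0.25, adjusted p = 0.0388), and the others were Areg, which encodes amphiregulin (-1.01 ± 0.17, adjusted p = 0.0194), and Junb, a subunit of AP-1 (-1.79 ± 0.34, adjusted p = 0.0399). In 8 fits that each left out 1 array Egr1 passed in 2, Areg in 3 and Junb in 1 (adjusted p up to 0.270, 0.163 and 0.164). The list's median difference was 0.10 without and -0.24 with iodide, against 0.00 and -0.01 over all genes. Averaged over both lines, iodide raised Areg (0.96 ± 0.12, adjusted p = 0.00106) and Nr4a3, an orphan nuclear receptor induced early by cAMP (0.91 ± 0.19, adjusted p = 0.0268), and lowered Ccng2, a cyclin of resting cells (-0.61 ± 0.14, adjusted p = 0.0412). Areg passed in all 8 fits, Nr4a3 and Ccng2 in 2 each (largest adjusted p 0.142 and 0.214).

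None of 8 fitted serpins other than Serpinf1 passed between the lines, and 7 of them had a positive difference under each salt. Their medians were 0.31 without and 0.38 with iodide, against 0.00 and -0.01 over all genes. The part of the higher reading of dim probe sets on L629F arrays in these values was not tested. None of 9 fitted imprinted genes other than Mest passed, with medians of 0.30 and 0.10. Of these 9 genes, 6 had a positive difference without and 7 with iodide. The largest without iodide were those of H19, a noncoding RNA, and Nnat. H19 had 1.19 ± 0.35 without (adjusted p = 0.166) and 0.03 ± 0.35 with iodide (adjusted p = 0.981). Nnat had 1.18 ± 0.46 without (adjusted p = 0.289) and 0.10 ± 0.46 with iodide (adjusted p = 0.961). None of 8 fitted acute phase and NF-κB genes passed, with medians of -0.10 and -0.21, nor did any of 8 partners of CD47 (-0.12 and -0.16), which include its ligand Sirpa, or of 6 ICAM and integrin genes (-0.05 and 0.01). The same held for 13 genes of sulfation in the Golgi (0.03 and -0.01), 13 CYP2 cytochromes P450 and their partners (0.11 and 0.01) and 36 mitochondrial carriers (0.04 and -0.03). Of 25 Wnt pathway genes, a pathway on which both Mest and Pdzrn3 are known to act, 1 rose in L629F cells without iodide, Dkk3, a secreted protein of the Dickkopf family (1.98 ± 0.40, adjusted p = 0.0456), a call kept in 1 of the 8 fits (adjusted p up to 0.355).

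With iodide, averaged over both lines, 1 of the 8 serpins fell, Serpinb1a, an inhibitor of neutrophil proteases (-0.71 ± 0.13, adjusted p = 0.0173), and so did Itgav, the integrin alpha-V chain that is listed with both the ICAM and the CD47 partners (-0.80 ± 0.15, adjusted p = 0.0173). With 1 array left out at a time, Serpinb1a passed in 2 and Itgav in 3 of 8 fits (largest adjusted p 0.107 and 0.140). The serpins' median change with iodide was -0.41 with 2 of 8 positive, against 0.01 over all genes.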

How the data were processed

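RNA of the 8 samples was read on Affymetrix rat arrays of 1 colour, per the labels. The authors deposited MAS5 intensities on a linear scale (tool per the submitters' processing notes). Not given in the sources used here are its version, the scaling target and any detection calls. Each deposited array had a trimmed mean of 500.2.

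Platform annotation gave 20832 probe sets 1 symbol, of which 20764 matched a GRCr8 entry. After 57 controls and the dimmest 40% of probe sets were dropped, 18631 stayed, and each of 10047 genes was represented by its brightest probe set. The scale was log2(signal + 35.3), the added value being the 25th percentile, with no centring (array medians spanned 0.06 over kept and 0.25 over all probe sets). The fit used limma 3.58.1 in R 4.3.3 (intensity trend, 4 group coefficients, 4 residual and 9.52 prior degrees of freedom). Two-sided p-values were adjusted across the 10047 genes by Benjamini-Hochberg, with a threshold of 0.05. Dimmer probe sets were read from a fit of all 31042 probe sets. The fit was tested on simulated data. Precision is limited by the number of arrays.

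Members, gene lists and the rule for named genes were chosen with earlier results of these data known. The rule took all members, up to 5 other genes per direction with the largest smaller-of-the-2 line difference, neighbours past the threshold and up to 4 genes per list; other neighbours and list genes were named after their values were seen. Alternatives changed the pseudocount, filter, scaling, choice of probe set, trend, pairing and arrays. Figures were drawn with matplotlib 3.10.9.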

Additional observations from a re-analysis of the deposited data

How the results depend on the processing

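No member's log2 difference between L629F and WT cells changed sign under any alternative run, which the way they were chosen favours. Over all genes, both the number past the threshold and its split by direction depended on the settings. Without iodide, 49 genes passed between the lines (34 higher and 15 lower in L629F). This count was 14 with no filter on dim probe sets, 31 when the probe sets of each gene were averaged, 10 with no intensity trend, 87 with only the arrays of the contrast, and 4 to 66 with 1 array left out. Centring each array on all probe sets gave 91, with 18 higher and 73 lower. With iodide, 51 genes passed (37 higher and 14 lower), against 14 with no filter, 21 with no trend, 6 with only the arrays of the contrast and 8 to 25 with 1 array left out, and centring on all probe sets gave 17 higher and 52 lower.

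For iodide in WT cells, 47 genes (8 higher and 39 lower) became 15 with no filter, 24 with centring on all probe sets (8 higher and 16 lower), 0 with no trend, 28 with only the arrays of the contrast and 0 to 42 with 1 array left out; the members past the threshold were 0 with no trend and 0 to 1 with 1 array left out. In L629F cells, 9 genes became 4 with no filter, 2 with centring on all probe sets, 17 with quantile normalization, 0 with no trend, 3 with only the arrays of the contrast and 0 to 9 with 1 array left out. For the average over both lines, 167 genes (55 higher and 112 lower) became 93 with no filter, 18 with no trend and 38 to 266 with 1 array left out, and centring on all probe sets gave 99 higher and 96 lower. Of the members, 1 passed in that average with no trend and 1 to 4 with 1 array left out. The causes were not tested.

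The replicate numbers are shared by all groups, but nothing in the labels pairs the arrays, and the correlation of replicate deviations between groups was 0.04 to 0.22. With the replicate number as a block, 248 genes passed between the lines without and 169 with iodide, and 231 passed for iodide in WT cells, 60 in L629F cells and 527 on average, with 3, 2 and 4 of the members among the iodide counts (Cyp2f4, Serpinf1 and Icam5 in WT cells, Cyp2f4 and Plekhd1 in L629F cells, and Cd47 beside the other 3 on average).

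Some iodide changes of members, none of which passed, turned sign when 1 array was left out. In WT cells the log2 change ran from -0.49 to 0.19 for Gal3st4, from -0.17 to 0.71 for Ucp1, from -0.10 to 0.36 for Mest and from -0.060 to 0.45 for Pdzrn3. In L629F cells it ran from -0.093 to 0.21 for Mest, from -0.46 to 0.36 for Pdzrn3 and from -0.31 to 0.069 for Saa3. On average it ran from -0.021 to 0.21 for Mest and from -0.13 to 0.28 for Pdzrn3. The difference of the iodide changes ran from -0.48 to 0.20 for Gal3st4, from -0.20 to 0.69 for Ucp1, from -0.30 to 0.16 for Mest, from -0.65 to 0.16 for Pdzrn3, from -0.37 to 0.15 for Plekhd1 and from -0.18 to 0.065 for Cd47, which was also 0.016 when its probe sets were averaged.

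With 2 arrays per group and no stated separate cultures, each count rests on few arrays. Signals near the dim limit, as of Icam5 and Saa3, depend on the pseudocount.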
